A study of Homo sapiens with 4 samples.

Results

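The genes described here encode the proteasome and its helpers, and they were chosen by symbol: PSM, a letter from A to G, and a digit. A gene counted as a member when a peak in either of 2 deposited lists named it through a protein-coding RefSeq transcript (accessions starting NM_). That gave 39 genes of 11270 named in this way, with 31 of 9011 in the replicate 1 list and 33 of 8593 in the replicate 2 list. The rule also takes PSMC3IP, a meiotic recombination factor whose symbol begins with that of the ATPase gene PSMC3 but which is no proteasome gene. The other 38 were set against the 48 protein-coding proteasome genes that RefSeq lists, so that genes without a peak are counted too.

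The proteasome is the cell's main machine for breaking down proteins that carry chains of ubiquitin. Its core particle is a barrel of alpha rings (PSMA genes), which gate the entrance, and beta rings (PSMB genes), which hold the cutting sites. A regulatory particle caps the barrel: its ATPases (PSMC genes) unfold substrates, and its other subunits (PSMD genes) bind substrates, remove ubiquitin and hold the particle together. PSME genes encode other activators that dock on the barrel, PSMF1 encodes PI31, a regulator named for inhibiting the core particle in the test tube, and PSMG genes encode chaperones that assemble the core. When proteasome activity falls, cells are known to raise the subunit genes together through the transcription factor NFE2L1, which acts on antioxidant response elements in their promoters.

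RNA recovered with YBX1, a cold-shock domain protein that binds messenger RNA, was sequenced from PANC-1, an established human pancreatic cancer line. The 4 samples were 2 YBX1 immunoprecipitates (IP) and 2 inputs, as replicates 1 and 2, and every sample came from cells that had been pretreated with CAFs-derived Evs (vesicles from cancer-associated fibroblasts). Cells without vesicles and a control antibody were not analysed here. A peak thus says where RNA in the YBX1 precipitate stood above input in treated cells, with no comparison of treatments. It does not by itself show binding by YBX1. Whether replicates 1 and 2 were separate cultures is not in the labels, so their likeness may be technical. Each list set 1 IP against the input of its own number. It gave for each peak its hg19 position, the reads inside it (a count not scaled to library size, with no library named), the authors' fold of IP over input, and a false discovery rate in percent. The lists differed as wholes: the lowest read number of a peak was 11 in replicate 1 but 6 in replicate 2. The median false discovery rate over all peaks was 18.3% in replicate 1 and 100% in replicate 2. Library totals were not used here, and the lists give no strand for the reads, so a gene and a neighbour on the other strand cannot be told apart under a shared stretch.

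Most proteasome genes were named by a peak, and the share was above that of all protein-coding genes in each list. The replicate 1 list named 30 of the 48 genes (62.5%), against 45.8% of 19443 protein-coding genes. The replicate 2 list named 32 (66.7%), against 43.8%. Both lists named 24 (50%), against 32.3%, and at least 1 list named 38 (79.2%), against 57.3%. A gene was then counted as shared when it was named in each list by a peak that coincided with one of the other list, by at least 1 bp. By this count 17 proteasome genes were shared (35.4%), against 21.2% of protein-coding genes. When the middle of the peak also had to lie inside the gene in both lists, 12 remained (25.0%), against 14.3%. These shares are descriptions with no test.

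Member peaks also held more reads than most peaks. The median peak naming a member held 83.5 reads in replicate 1, where the median over all genes was 46, and 25 reads in replicate 2, where it was 16. The authors' median fold was lower for members in both lists, 7.985 against 9.32 and 20.61 against 25.31. Among members, the median read number was 171 for peaks that overlapped the other list and 52 for those that did not in replicate 1. In replicate 2 it was 74.5 and 12. The part that read number plays in the members' counts was not tested.

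By part of the particle, beside 21.2% of protein-coding genes and 35.4% of all proteasome genes, shared peaks named 2 of 8 alpha ring genes, 4 of 11 beta ring genes, 2 of 6 ATPase genes, 5 of 14 other genes of the regulatory particle, 3 of 4 activator genes and PSMF1. They named 0 of 4 assembly chaperone genes of the core, although 3 of those 4 had a peak in each list. The 10 genes named in neither list were PSMA8, PSMB1, PSMB7, PSMB10, PSMB11, PSMC6, PSMD6, PSMD10, PSME1 and PSMG3. As background, PSMA8 is a testis subunit and PSMB11 a thymus subunit, PSMB10 belongs to the immunoproteasome, and PSMB7 is a constitutive cutting subunit.

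**Figure D1:**
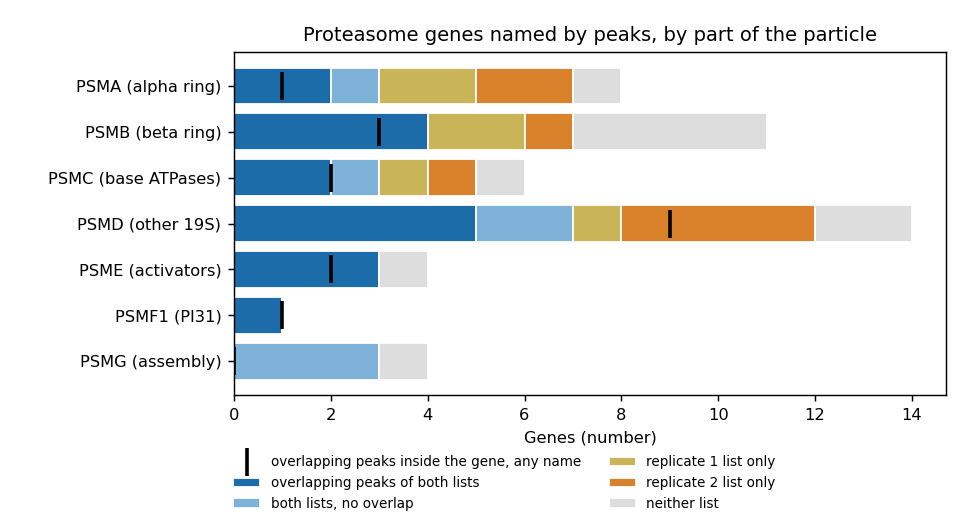
Number of proteasome genes in each part of the particle, split by whether overlapping peaks of both lists, both lists without overlap, 1 list or neither list named them; the black mark gives genes with overlapping peaks inside the gene whatever gene the peaks name. The assembly chaperones have no gene with overlapping peaks, and for the PSMD genes the mark stands at 9, above the 5 counted by name.

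The gene that a peak named and the gene it lay in were often different. The submitters' annotation calls a peak upstream when it lies 2000 to 20000 bp before a gene's start, and such a peak may sit in the body of a neighbour. Leaving out PSMC3IP, replicate 1 had 73 gene and peak pairs, of which 27 had their middle outside the named member, and 18 of those lay inside another listed gene. In replicate 2 these numbers were 78, 23 and 16. The middle lay inside the named gene in 63.0% of these pairs in replicate 1 and 70.5% in replicate 2. That is near the 64.9% and 68.9% over all genes, so it is no trait of the proteasome genes. In the other direction, 20 peaks of replicate 1 and 17 of replicate 2 had their middle inside a proteasome gene that no NM_ row of theirs named. Of those 20, 1 was named for PSMB3 all the same, through a non-coding transcript. For these peaks, and for pairs inside another listed gene, no share over all genes was counted.

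Counting by position changed which genes were marked. Over the 38 genes whose bounds the lists give, 24 held a peak in replicate 1 (63.2%, against 68.4% of 11270 genes) and 27 in replicate 2 (71.1%, against 67.0%). These shares are near each other, but both are over genes that a list had already named. Over all 48 proteasome genes, a peak that named the gene lay inside it for 21 in replicate 1 (43.8%, against 33.0% of protein-coding genes). In replicate 2 the number was 25 (52.1%, against 32.3%). Overlapping peaks of both lists lay inside 18 of the 38 (47.4%, against 35.7%). The genes gained by position were PSMC4, PSMD4, PSMD5, PSMD11 and PSMD14, and those lost were PSMA4, PSMB8, PSMC5 and PSME2. PSMB3 was counted both ways, through different peaks. By position 11 of the 17 named genes of the regulatory particle held overlapping peaks, and 4 of the 14 named genes of the core, beside the same 35.7%. These counts were not tested against each other. The median length of all genes in those groups, named or not, was 16581 and 12013 bp on GRCh38.

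The peak with the most reads of any member lay in PSMF1. That peak, in an exon at chr20:1145575-1148647 in replicate 1, held 2543 reads at 13.01-fold over input, and its partner in replicate 2, which starts 8 bp further on, held 811 reads at 19.07-fold. The false discovery rates were 19.23% and 29.15%, among the lowest that the members had in replicate 2. A smaller exon peak just before it, at chr20:1144890-1145343, held 136 reads at 8.55-fold and 93 reads at 24.73-fold. A peak over the gene's start, at chr20:1099176-1099520, held 253 reads at 9.70-fold and 72 reads at 10.65-fold, and its false discovery rate in replicate 2 was 100%. PSMF1 also held overlapping peaks that begin 6828 and 16432 bp into the gene in replicate 1, with 101 and 227 reads, and the lists name these for the neighbour LOC105372493. Its intron peaks held 6 to 12 reads, and each was in 1 list only.

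The activator genes differed in where their peaks lay. PSME4 encodes the large single-chain activator of the nucleus, and all of its peaks lay in exons, 5 in each list and 3 of them overlapping. At chr2:54155210-54155527 replicate 1 held 115 reads at 4.07-fold and replicate 2 held 28 reads at 20.93-fold. At chr2:54128451-54128764 the values were 82 reads at 3.54-fold and 17 reads at 38.64-fold, and at chr2:54161688-54161972 they were 32 reads at 9.95-fold and 8 reads at 14.81-fold. The edges of these 3 pairs differed by at most 14 bp, so the stretches were near identical while the folds differed up to 10.9 times. PSME2, a subunit of the interferon-inducible activator, ranked first among members by the smaller of its highest shared folds, 17.95 in replicate 1 and 39.29 in replicate 2. Those folds belong to different pairs and rest on 25 and 18 reads. Its overlapping peaks, at chr14:24616367-24617007 and chr14:24620344-24620647, lay upstream of PSME2 inside the ubiquitin ligase gene RNF31, and no peak lay in PSME2 itself. PSME3, the nuclear activator subunit, had an overlapping peak inside the gene, 1267 bp after a start, with 33 reads at 5.95-fold and 12 reads at 14.29-fold. PSME1, the partner of PSME2 in its ring, was named in neither list.

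Among the genes of the regulatory particle, PSMD2 and PSMD3 had the most overlapping peaks. PSMD2 encodes the large base subunit that docks shuttle proteins carrying ubiquitinated cargo. Its 3 peaks in replicate 1, at chr3:184016966-184017654, chr3:184017985-184018281 and chr3:184019258-184020666, held 129, 246 and 403 reads at folds of 15.65, 3.49 and 7.52. Their partners in replicate 2 held 26, 102 and 191 reads at folds of 13.0, 7.41 and 9.53. The order by reads was the same in both lists, and the first had the highest fold in each. Further along PSMD2, 3 more pairs overlapped that the lists name for EIF4G1, a translation factor gene next to it, and the largest of them held 592 reads in replicate 1 and 248 in replicate 2.

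PSMD3, a structural subunit of the lid, had 6 peaks in replicate 1 and 4 in replicate 2, and all 4 overlapped. The pair over the transcript's end, at chr17:38153738-38154267, held 299 reads at 7.63-fold and 117 reads at 8.36-fold, the closest folds of the 4 pairs. At chr17:38142766-38143041 the values were 88 reads at 10.8-fold and 34 reads at 20.61-fold, and this peak was classed as exon in replicate 1 and intron in replicate 2. At chr17:38145967-38146536 they were 58 reads at 6.59-fold and 37 reads at 17.81-fold. At chr17:38140472-38140760 replicate 2 held more reads than replicate 1, 116 against 74, at folds of 12.13 and 4.42. All 4 replicate 2 peaks had a false discovery rate of 100%.

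In 4 further subunits of the regulatory particle, PSMD4, PSMD8, PSMD11 and PSMD13, the overlapping peaks with the most reads lay at or near the transcript end. PSMD13, a lid subunit, had an overlapping pair over its transcript end at chr11:252445-253044, with 542 reads at 5.86-fold and 295 reads at 10.89-fold. PSMD8, another lid subunit, had overlapping peaks just after its start, with 185 reads at 4.39-fold and 77 reads at 44.34-fold, and in its middle, with 219 and 99 reads. Its largest pair, over the transcript end, had 1191 reads in replicate 1, 811 in replicate 2 and the name of the neighbour FAM98C in both lists. PSMD11, a lid subunit known to promote assembly of the full proteasome, is named only in replicate 2, by peaks of 14 and 28 reads. Near its end, however, lay the largest pair inside any PSMD gene, at chr17:30807438-30810307, with 2367 reads at 8.21-fold and 1512 reads at 15.31-fold, named for CDK5R1 in both lists. PSMD4, a ubiquitin receptor, likewise had a pair over its end with 330 and 155 reads that was named for ZNF687. The replicate 2 peak that does name PSMD4 with the most reads, 434, lay upstream in PIP5K1A.

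Chaperones of the base and the deubiquitinase gene gave mixed results. PSMD9, a chaperone that helps the ATPase ring assemble, had an overlapping pair at its start, chr12:122326594-122326960, with 85 reads at 6.01-fold and 24 reads at 37.92-fold. PSMD5, another such chaperone, is named only in replicate 2, where its end peak at chr9:123578425-123580476 held 510 reads at 11.53-fold. That peak overlapped a replicate 1 peak of 742 reads at 3.83-fold that was named for LOC100288842, so the place was marked in both lists. PSMD14, the subunit that removes ubiquitin chains, is named by 5 peaks, all in replicate 2, with 7 to 75 reads. The peak of 18 reads overlapped a replicate 1 peak of 36 reads named for TBR1. PSMD1 was named only in replicate 1 (31 and 26 reads) and PSMD12 only in replicate 2 (6 reads). PSMD7 had a peak in each list, 28 and 8 reads, past the end of the gene.

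**Figure D2:**
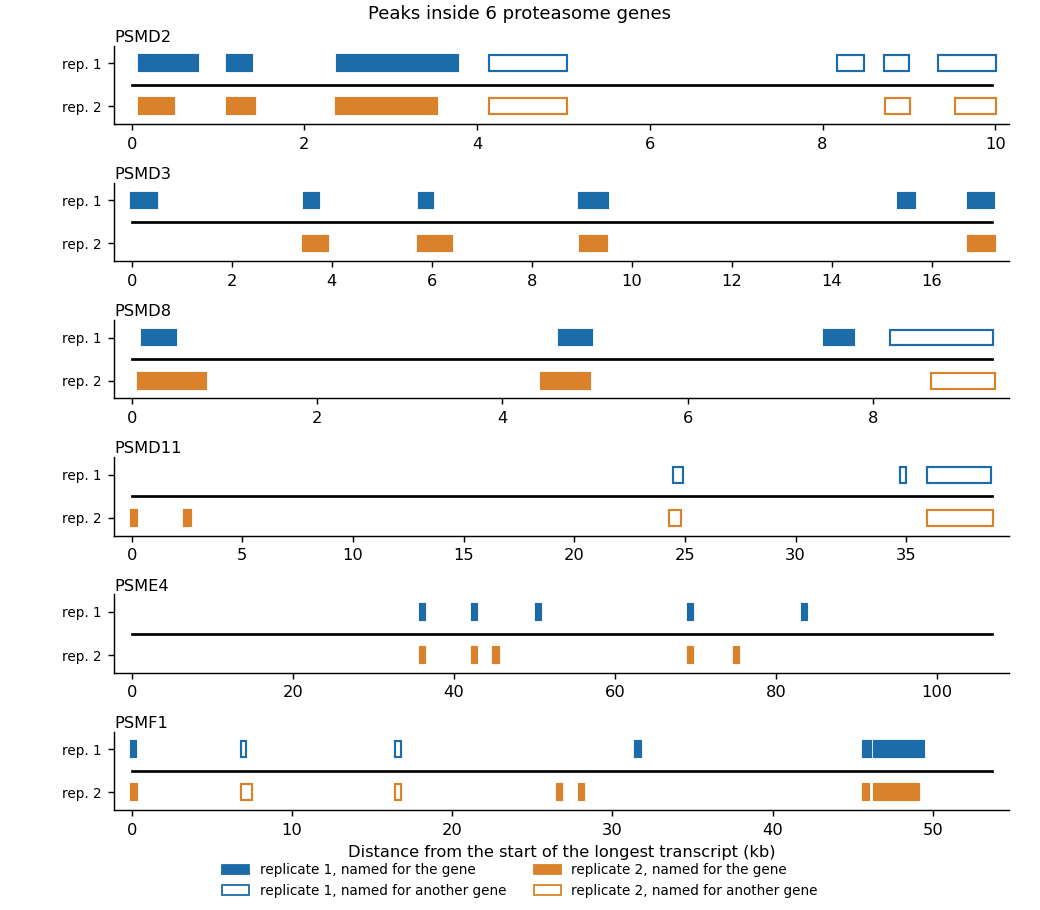
Peaks inside 6 proteasome genes, drawn by distance from the start of the longest listed transcript in kilobases, with replicate 1 above the line and replicate 2 below it; filled bars are named for the gene and open bars for another gene. The peaks at or near the far end of PSMD2, PSMD8 and PSMD11 are open in both lists, while all peaks of PSMD3 and PSME4 are filled.

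The ATPase genes had few overlapping peaks. PSMC3 had a pair in an intron at chr11:47444027-47444619, with 65 reads at 9.60-fold and 33 reads at 23.13-fold. PSMC5 had a pair that crossed its transcript end, at chr17:61908093-61911143, with 444 reads at 6.37-fold and 153 reads at 26.33-fold. Its middle lay past the end, and the lists class it as intergenic. PSMC4 is named only in replicate 1, by 4 peaks. The largest, at chr19:40485626-40486473, held 1128 reads at 4.91-fold. The others held 236 reads at 8.19-fold after the start, and 16 and 11 reads upstream. A replicate 2 peak of 1092 reads at 17.09-fold overlapped the largest and was named for ZNF546, so the reads in the pair differed by a ratio of 1.03. PSMC2 was named only in replicate 2. Its peak just after the start, at chr7:102988040-102988326, had the highest fold of any member, 160.31, on 38 reads and at a false discovery rate of 29.12%, and replicate 1 had no peak there. PSMC1 had a peak in each list, 18 reads past its end and 7 reads inside it, and they did not overlap.

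Among the beta ring genes, PSMB2, PSMB3 and PSMB4 held overlapping peaks inside the gene. PSMB2, a structural subunit, had overlapping pairs over a transcript start, at chr1:36106893-36107379, with 127 reads at 10.47-fold and 95 reads at 11.01-fold, and at chr1:36101832-36102282, with 33 reads at 22.26-fold and 33 reads at 16.12-fold. The latter is classed as upstream of a shorter transcript, and replicate 1 had the higher fold there. The gene's peak with the most reads in replicate 2, 129 at 6.76-fold in an exon at chr1:36074754-36075078, had no partner in replicate 1. PSMB4, also structural, had its only peak over its start, with 450 reads at 3.88-fold and 129 reads at 11.78-fold. PSMB3 is named by a shared peak at -18308 bp from its start, with 991 and 340 reads, which lay in the neighbours CISD3 and PCGF2. Inside PSMB3 itself a pair of 113 and 78 reads overlapped, and it was named for PCGF2 in replicate 2. Of the cutting subunits, PSMB5 was named only in replicate 2, by a start peak of 17 reads, and PSMB6 only in replicate 1, by a start peak of 76 reads at 5.51-fold.

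The immunoproteasome genes PSMB8 and PSMB9 flank TAP1, a peptide transporter gene, and the peaks that name them lay in or beside TAP1. The overlapping pairs were at chr6:32814791-32815956, with 171 reads at 9.44-fold and 38 reads at 13.57-fold, and at chr6:32818007-32818350, with 127 reads at 3.95-fold and 36 reads at 21.6-fold. Replicate 1 names both genes at each place and replicate 2 names PSMB8 alone, which is why PSMB9 counts as a gene of 1 list. PSMB8 also had a replicate 1 peak of 465 reads at 13.8-fold at -699 bp from its start, and PSMB9 a replicate 1 peak of 235 reads at 6.71-fold at -608 bp from its start. No peak had its middle inside PSMB8 or PSMB9 in either list. The peaks counted for these genes are thus peaks of the TAP1 stretch.

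Of the alpha ring genes, PSMA1 alone held overlapping peaks inside its bounds. That pair lay in an intron at chr11:14616516-14622677, with 709 reads at 4.87-fold and 515 reads at 17.31-fold, and it was the longest member peak, at 6162 bp in replicate 1. The bounds are those of a transcript of 138760 bp that starts at chr11:14665180 on hg19. RefSeq's window around a PSMA1 start is elsewhere, at chr11:14520337-14520636 on GRCh38.p14. The pair may therefore lie upstream of a shorter transcript, which was not checked across the builds. PSMA1 and PSMF1 were the only members named in each list by overlapping peaks that reached a score of 200. Pairs named for another gene in 1 list, as in PSMC4 and PSMD5, are not in this count. The score puts the p of the authors' caller on a minus log10 scale, times 10. PSMA4 is named by a pair upstream of the gene at chr15:78825531-78828955, with 368 reads at 8.07-fold and 44 reads at 17.72-fold, which lay in the neighbour HYKK. PSMA7 had peaks at different ends, 425 reads at its transcript end in replicate 1 and 49 reads at its start in replicate 2. PSMA2 and PSMA5 were named in replicate 1 by 54 and 29 reads, and PSMA3 and PSMA6 in replicate 2 by peaks of at most 50 reads.

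None of the 4 core assembly chaperone genes had overlapping peaks, by name or by position. PSMG1 had 3 peaks inside the gene in replicate 2, of 184, 73 and 35 reads, and a replicate 1 peak of 43 reads past its end. PSMG2 was named by 1 peak of 26 reads in replicate 1 and 5 peaks of 6 to 20 reads in replicate 2, and 5 of these 6 peaks also lay in the neighbour CEP76. Inside PSMG2 also lay replicate 1 peaks of 20, 26 and 42 reads named for SPIRE1 and a replicate 2 peak of 16 reads named for CEP76. PSMG4 was named by a replicate 1 peak of 966 reads past its end, at chr6:3269220-3273559, and by a replicate 2 peak of 8 reads elsewhere. PSMC3IP, the non-member by function, had a pair of 1597 and 455 reads at its end, which replicate 2 did not name for any gene matched here, and a pair of 1890 reads at 2.85-fold and 381 reads at 6.52-fold in the neighbour FAM134C.

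**Figure D3:**
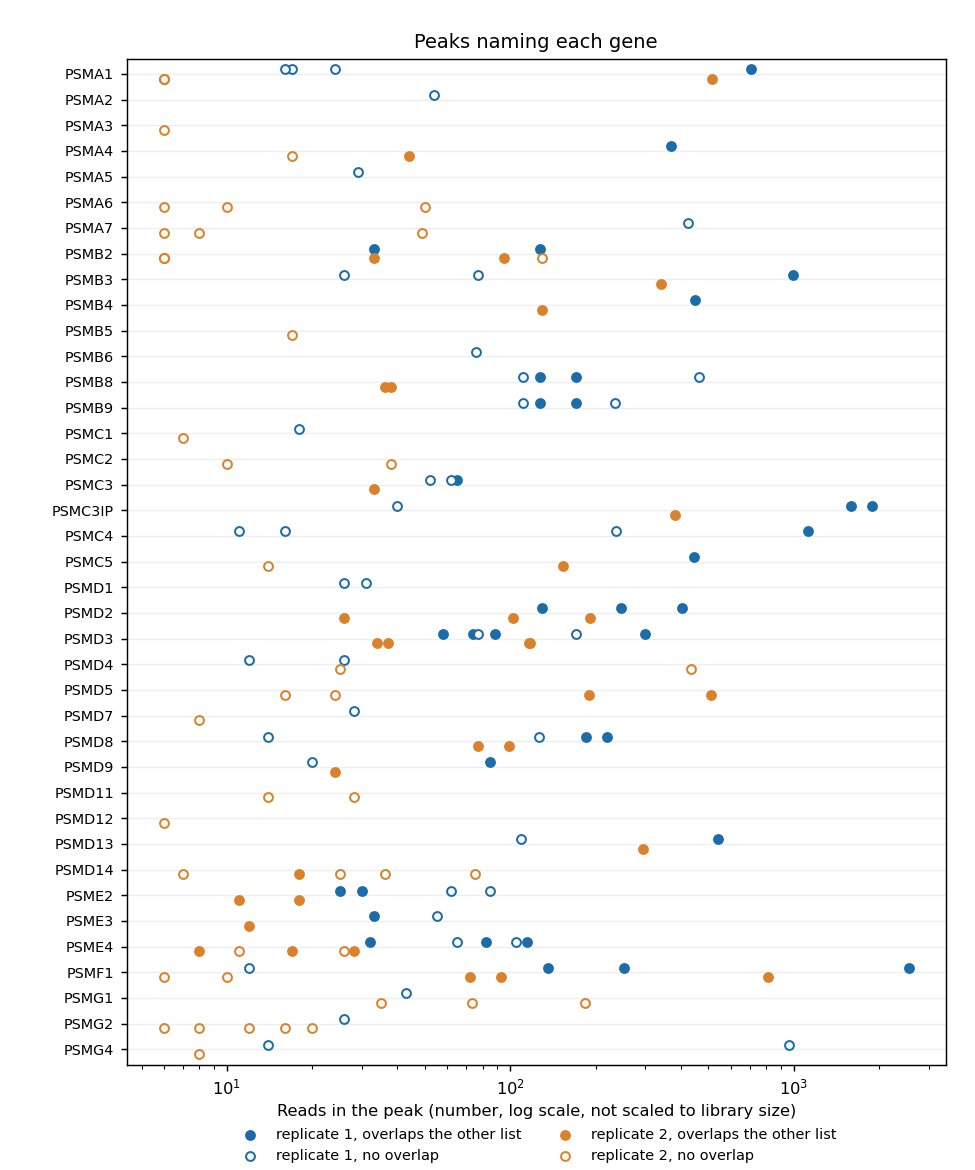
Reads in each peak that names a gene matched by the symbol rule (log scale, not scaled to library size), blue for replicate 1 and orange for replicate 2, filled where the peak overlaps a peak of the other list. The filled points sit mostly to the right, and replicate 2 has 12 of 79 points at its lowest value of 6 reads (15.2%, against 14.7% over all genes).

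Start peaks made up a larger share of member peaks than of all peaks, and exon peaks a smaller one. The promoter class, within 2000 bp of a start, took 23.7% of member peaks in replicate 1 (15.7% over all genes) and 21.5% in replicate 2 (14.5%). The exon class took 31.6% (36.2%) and 24.1% (33.9%), and the intron class 10.5% (17.7%) and 26.6% (24.5%). Upstream peaks took 26.3% (21.7%) and 22.8% (18.3%), and intergenic peaks 7.89% (8.69%) and 5.06% (8.70%). The middle lay inside the named gene in 61.8% (64.9%) and 69.6% (68.9%). By position, a peak crossed a transcript start in 7 of the 38 genes in replicate 1 (18.4%, against 9.75% of all genes named in the lists) and in 6 in replicate 2 (15.8%, against 7.97%). In PSMB2, PSMB4 and PSMF1 such peaks of both lists overlapped (7.89%, against 2.99%). Transcript ends were crossed in 8 genes (21.1%, against 24.6%) and 9 genes (23.7%, against 17.0%), with overlap in PSMC5, PSMD2, PSMD3, PSMD4, PSMD8 and PSMD13 (15.8%, against 11.5%). Peaks in an exon within 2000 bp of a start count as promoter peaks here.

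**Figure D4:**
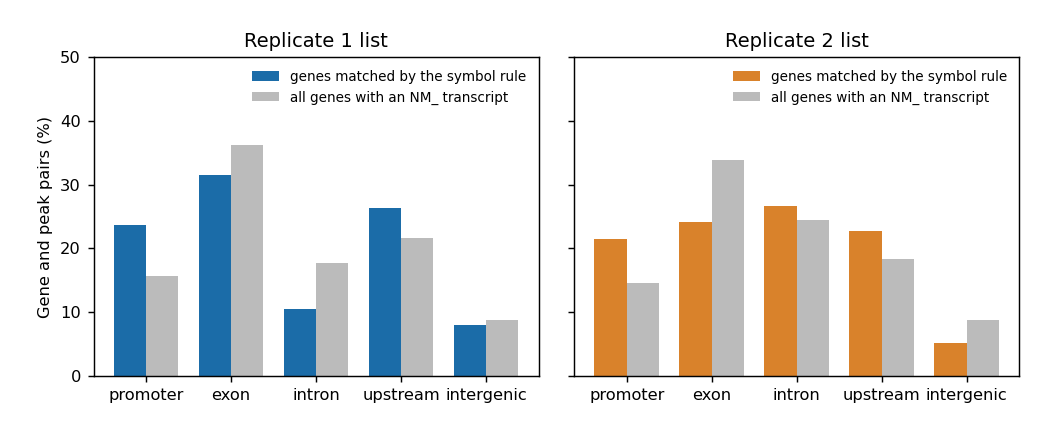
Share of gene and peak pairs in each class of the submitters' annotation (percent), for genes matched by the symbol rule in colour and for all genes with an NM_ transcript in grey, 1 panel per list. The promoter bar of the members is above the grey bar in both panels, and the exon bar is below it.

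The members whose overlapping peaks at the start lay inside the gene in both lists, and for which RefSeq gives a single promoter window, are shown by the 150 bases before their start. These are PSMB2, PSMB4, PSMD8, PSMD9 and PSME3, and the stretches are RefSeq's on GRCh38.p14, while the peaks are on hg19. Capitals mark 3 motifs on either strand: TGACNNNGC, the core of the antioxidant response element; ATTGG, the inverted CCAAT that gave Y-box proteins their name; and GGAAG, the core of ETS sites. PSMB2 is on the minus strand (chr1:35641527-35641676) and the others are on the plus strand (PSMB4 chr1:151399423-151399572, PSMD8 chr19:38374421-38374570, PSMD9 chr12:121888640-121888789, PSME3 chr17:42833247-42833396).
PSMB2: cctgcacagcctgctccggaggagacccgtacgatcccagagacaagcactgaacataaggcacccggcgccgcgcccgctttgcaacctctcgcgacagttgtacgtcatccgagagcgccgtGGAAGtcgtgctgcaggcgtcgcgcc
PSMB4: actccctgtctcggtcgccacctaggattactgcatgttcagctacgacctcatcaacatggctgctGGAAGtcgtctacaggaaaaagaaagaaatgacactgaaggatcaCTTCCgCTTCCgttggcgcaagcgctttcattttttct
PSMD8: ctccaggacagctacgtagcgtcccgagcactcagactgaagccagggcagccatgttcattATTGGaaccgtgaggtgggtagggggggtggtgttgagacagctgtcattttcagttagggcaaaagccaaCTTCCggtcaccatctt
PSMD9: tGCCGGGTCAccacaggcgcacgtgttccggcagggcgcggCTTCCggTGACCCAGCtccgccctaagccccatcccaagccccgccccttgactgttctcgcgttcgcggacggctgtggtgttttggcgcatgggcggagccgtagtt
PSME3: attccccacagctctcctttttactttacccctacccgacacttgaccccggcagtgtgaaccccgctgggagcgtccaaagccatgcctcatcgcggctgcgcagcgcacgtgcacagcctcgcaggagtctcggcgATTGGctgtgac

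In these stretches PSMD9 has 2 matches to TGACNNNGC, on opposite strands, PSMD8 and PSME3 have 1 match each to ATTGG, and PSMB4 has 3 to GGAAG. The search covered windows from 250 bases before to 50 bases after each start, for 51 windows of 42 proteasome genes, with no window matched for 6 genes. TGACNNNGC was in 15 of the 51 windows (29.4%), against 13.8% of 22199 windows of protein-coding genes. ATTGG was in 20 (39.2%), against 34.7%, and GGAAG in 42 (82.4%), against 73.7%. A match describes the letters only. These windows are DNA before the start, whereas the peaks are of RNA, and most of each window is not in the transcript.

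The replicates were compared over 33 pairs of overlapping peaks, those whose replicate 1 peak named a gene matched by the symbol rule. Pairs named so in replicate 2 alone, as in PSMD5 and PSMD14, are not among them. Replicate 1 held more reads in 31 of them, with a median ratio of 2.59, against 3 over all 7603 pairs. The authors' fold was higher in replicate 2 in 31 of 33, against 92.1% of all pairs. For reads Spearman's rho was 0.901 over the 33 pairs and 0.875 over all pairs. For folds it was 0.109 and 0.432. These coefficients are across peaks, several of them in the same gene, and both lists come from the same cell line and protocol. The start of the peak agreed to within 50 bp in 20 of the 33, the end in 16, and both in 9 (27.3%, against 35.4% of all pairs). In replicate 2 the false discovery rate was 100% in 16 of the 33 and below 50% in 8. Over all 79 member peaks of replicate 2 it was 100% in 43 (54.4%, against 56.3% of all peaks naming a gene).

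**Figure D5:**
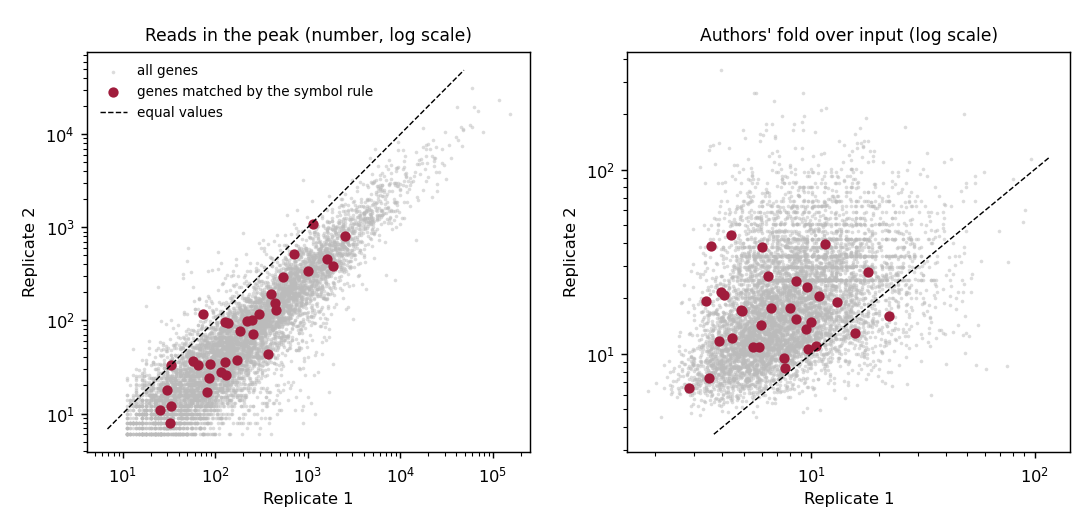
Overlapping peak pairs, replicate 1 on the horizontal and replicate 2 on the vertical axis (log scales), for reads in the peak on the left and the authors' fold over input on the right; red points are the 33 pairs whose replicate 1 peak named a gene matched by the symbol rule and grey points all 7603 pairs. Red points follow the grey band below the line of equal values for reads, and for fold they scatter above the line.

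Genes that work with the proteasome were counted in the same way, from a list of 31 that supply ubiquitin, deliver cargo, assemble the particle or switch its genes on. Overlapping peaks named 12 of them (38.7%, against 21.2% of protein-coding genes), and in 9 they lay inside the gene (29.0%, against 14.3%). The first by the smaller fold was UBA1, the main ubiquitin-activating enzyme, whose highest pair lay upstream of the gene with 181 reads at 33.31-fold and 50 reads at 76.5-fold. BAG6, a chaperone for stray membrane proteins, had 412 reads at 19.3-fold and 82 reads at 17.47-fold at its start. UBE3C, a ubiquitin ligase that extends chains on the proteasome, had 91 reads at 16.71-fold and 33 reads at 139.22-fold in an exon. NFE2L2, a factor that acts through antioxidant response elements, had 34 and 8 reads at 11.99-fold and 16-fold at its start. Others with overlapping peaks included UBB, ADRM1, NGLY1, NFE2L1, NPLOC4 and RAD23B. NFE2L1, the factor of the proteasome response named above, had 15206 reads at 6.71-fold and 2098 reads at 12.43-fold in an exon, more reads than any proteasome gene. Among the rest, 6 had peaks in both lists without overlap, 6 were named in replicate 1 only, 1 in replicate 2 only and 6 in neither list. At least 1 list named 25 of the 31 (80.6%, against 57.3% of protein-coding genes), and both lists named 18 (58.1%, against 32.3%).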

How the data were processed

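The 4 libraries (2 YBX1 IP, 2 input) were compared by the authors within replicate number, giving 2 deposited peak lists, 1 per replicate. The submitters' processing notes name cutadapt 1.9.1, Bowtie2 2.2.4 and hg19. What called the peaks is not given in the sources used. Per the file headers, each peak has a count of reads inside it, not scaled to library size, a fold ratio of IP over input, a score (minus log10 of p, times 10), and a false discovery rate in percent. These are the authors' own values per peak. A p threshold of 0.001 stands in the sheet titles of both lists. The lowest score of a peak was nevertheless 119.51 in replicate 1 and 30 in replicate 2. The lists thus differ in how strict their weakest peaks are.

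Rows with an NM_ accession were collapsed to unique positions per gene (Python 3.11.15, pandas 2.3.3). Peaks of the lists that coincided by at least 1 bp were shared. A peak was inside a gene when its middle lay between the transcript start and end given in the lists. The overlap step was tested on simulated peaks. The 19443 protein-coding RefSeq genes (GRCh38.p14) gave the background and gene lengths only. Promoter windows are RefSeq's. With no values per library there was no model and no p-value, and counts stand beside those over all genes. Wilson intervals (95%) cover counting error only and take pairs of the same gene as independent. Members with shared peaks were ranked by the smaller of both lists' highest shared folds, with the first 12 described in full. Of members in 1 list, the 5 with the most reads in a peak were to be named, and of the pathway list the 5 first by the same rank were to be given values; some genes of that list are not reported here by name. Values of further members were added after they were seen. The members and lists were chosen with earlier results of these data known.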

Additional observations from a re-analysis of the deposited data

How the results depend on the processing

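By name, 18 genes matched by the symbol rule (17 without PSMC3IP) had overlapping peaks, and 12 to 18 did with 50% overlap of both peaks, a -log10 p of 5 or more, a fold of 4 or more, the middle inside the gene, or, added after the data were seen, 10 reads or more or a replicate 2 false discovery rate below 100% (12.7% to 20% of protein-coding genes, and 21.2% without these settings). A score of 200 or more left 2 of the 48 proteasome genes (PSMA1 and PSMF1), against 4.66% of protein-coding genes. Exon peaks alone left 4 of the 48 (PSMD3, PSMD13, PSME4 and PSMF1), against 9.48%. Under both settings the share of proteasome genes was slightly below, and near, that of protein-coding genes, so the higher share of the main count was not kept. These counts are small, and PSMD13 only just missed the score of 200, with 883.07 in replicate 1 and 199.88 in replicate 2. Of the 31 genes of the pathway list, 12 were shared in the main count and 6 at a score of 200 or more, which stayed above the 4.66%. With exon peaks alone 3 of the 31 were left, near the 9.48%. Any peak in 1 list alone named 31 to 33 members and 19 to 24 pathway genes (43.8% to 45.8% of protein-coding genes). The share of member peaks that overlapped the other list was 46.1% in replicate 1 (Wilson interval 35.3% to 57.2%; 32.3% over all genes) and 43.0% in replicate 2 (32.7% to 54.0%; 35.1%). The intervals take gene and peak pairs as independent, but the 76 pairs of replicate 1 came from 31 genes and 73 peaks. They are therefore too narrow to serve as a test. At a -log10 p of 5 or more these were 31.6% and 54.8% (22.6% and 49.1% over all genes), and at a score of 200 or more 10% and 57.1% (8.48% and 82.2%), where replicate 2 had only 7 member pairs left. The -log10 p of 5 and the 10 reads removed no replicate 1 peak, as its lowest score was 119.51 and its lowest read number 11. The fold of 4 removed no replicate 2 peak with an NM_ row, where the lowest fold was 4.1. Each of these 3 settings therefore trimmed 1 list only. The exon class took 27.7% of member peaks over both lists, 36.8% at a score of 200 or more, and 24.1% to 31.6% with either list left out. No paired analysis was possible because each list already sets an IP against the input of its own number and no values per library were used here. Of the replicate 2 member peaks, 12 of 79 held the list's lowest read number of 6 (15.2%, against 14.7% over all genes). Library totals were not used here, so what depth each list could detect is unknown.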
